A study of Mus musculus with 16 samples.

Results

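The 9 genes described here serve cellular iron: Tfrc, Slc11a2 and Steap3 in uptake, Slc25a37 and Fech in the mitochondrion, Aco1 and Ireb2 in iron sensing, Slc40a1 in export and Hmox1 in heme breakdown. They were chosen by symbol, each read by the probe that carries that symbol alone, with the highest mean where there were several. All 9 had 1 such probe and all passed the filter on dim probes, out of 19938 genes with a probe of a single symbol and 16427 tested. They were followed in naive CD4+ T cells from spleen and lymph nodes of B6 mice, sorted as CD4+CD62LhiCD25- and cultured for 24 h in medium holding 10% fetal bovine serum. The cells met latex beads that bore antibodies to CD3, the signalling part of the T cell receptor, with or without antibodies to the costimulatory receptor CD28. The mice either lacked Dec1, the product of Bhlhe40 and a transcriptional repressor of the basic helix-loop-helix family, or were wild type. The 4 groups of 4 arrays each were Dec1 knockout under anti-CD3 plus anti-CD28 (KO_CD3CD28), Dec1 knockout under anti-CD3 alone (KO_CD3), wild type under anti-CD3 plus anti-CD28 (WT_CD3CD28) and wild type under anti-CD3 alone (WT_CD3). All groups shared the B6 strain, the sort, the culture and the beads with anti-CD3, and no unstimulated cells were analysed here. The labels state neither the age of the mice nor how the knockout was made, nor whether the 4 numbered replicates were different animals, and the p-values then cover the spread between these samples alone, which may in part be technical.

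Cells take up most of their iron as transferrin, which binds the transferrin receptor and enters by endocytosis. The iron is reduced and released from endosomes, and then stored in ferritin, exported by ferroportin, or passed into mitochondria, where it is built into heme and iron-sulfur clusters. When iron is scarce, the iron regulatory proteins bind stem loops in messenger RNAs, which stabilises the message for the transferrin receptor and blocks translation of ferritin. The transferrin receptor is known as CD71 on lymphocytes, where it is a standard marker of activation, because dividing T cells depend on imported iron for DNA synthesis and respiration.

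All values are log2 levels after robust multiarray averaging (RMA), and differences are log2 differences between group means. A difference was called when its Benjamini-Hochberg adjusted p over all 16427 genes was under 0.05 in limma, a linear model with moderated variances. Array medians lay between 6.64 and 6.97, and correlations between arrays of a group were 0.97 to 0.995. The number of arrays limits the precision. In the deviations of the arrays from their group means, a first principal component with 39.6% of the variance placed all 8 arrays of replicates 1 and 2 on one side of 0 and all 8 arrays of replicates 3 and 4 on the other. The labels name no batch for this. Xist, expressed in female cells, lay between 10.44 and 11.36 on the arrays of knockout replicates 2 and 4 and wild-type replicate 1, and at 5.80 or lower on the others, so the sexes were not balanced between genotypes. Each genotype held both sexes, so its replicates did not all come from the same animal. Arrays of the same genotype and replicate number matched in sex between the stimuli. Bhlhe40, the targeted gene, had 6.07, 5.88, 5.86 and 5.73 in KO_CD3CD28 and 5.57, 5.95, 5.43 and 5.18 in KO_CD3, against 10.07, 10.03, 9.38 and 8.55 in WT_CD3CD28 and 8.02, 7.63, 7.59 and 7.00 in WT_CD3. Both knockout groups were near background (under the 40th percentile of all probes on every array) and did not overlap with wild type. Bhlhe40 was lower in knockout under both stimuli (log2 difference -3.62, limma adjusted p = 3.76e-06, under anti-CD3 plus anti-CD28 and -2.03, adjusted p = 0.00548, under anti-CD3). All 11 T cell markers with a probe were above background in every group, among them Cd3e, Cd4 and Cd5.

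Promoter windows from RefSeq were available for 4 of the 9 genes, Tfrc, Aco1, Ireb2 and Steap3. Those of Tfrc and Aco1, both higher with costimulation in the knockout, are printed here for the 250 bases before the annotated start (GRCm38.p6, 5′ to 3′, plus strand), and capitals mark GGGCGG on either strand, the GC box read by SP1-type factors.
Tfrc, chr16:32608646-32608895: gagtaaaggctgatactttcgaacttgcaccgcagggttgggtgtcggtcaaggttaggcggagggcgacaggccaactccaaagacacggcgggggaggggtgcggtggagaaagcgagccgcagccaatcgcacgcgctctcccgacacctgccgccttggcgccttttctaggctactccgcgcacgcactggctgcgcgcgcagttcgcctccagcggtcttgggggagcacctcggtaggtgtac
Aco1, chr4:40143015-40143264: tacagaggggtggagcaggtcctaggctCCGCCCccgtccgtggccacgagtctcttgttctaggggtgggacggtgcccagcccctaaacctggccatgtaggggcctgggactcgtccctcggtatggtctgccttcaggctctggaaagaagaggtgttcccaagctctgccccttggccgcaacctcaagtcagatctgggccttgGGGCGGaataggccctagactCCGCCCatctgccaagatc
The GC box was at 3 places in Aco1 and at none in this stretch of Tfrc, while 32.7% of the 32851 windows in the table held it in these 250 bases. A second window of Tfrc, set on a start further downstream (chr16:32608872-32609171), held 2 GC boxes, 1 of them before that start, so both genes held it in at least 1 window. The E-box CACGTG, which Dec1 and MYC both bind, was in none of the 8 windows of the 4 genes and in 7.15% of all windows. The shorter ACGTG, which lies within CACGTG and also forms the core that hypoxia-inducible factors bind, was searched on both strands and found in Tfrc alone among the 4 genes. It crosses the annotated start in the following 30 bases, with the match in capitals, and 19.6% of all windows held it.
Tfrc, chr16:32608882-32608911: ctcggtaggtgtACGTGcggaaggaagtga
These matches describe the letters only.

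Costimulation had its largest effect among the 9 genes on Tfrc, the transferrin receptor. Tfrc had 12.06, 12.00, 12.00 and 12.05 in KO_CD3CD28, against 10.05, 9.70, 10.16 and 10.54 in KO_CD3. In wild type it had 11.96, 12.09, 11.91 and 12.23 in WT_CD3CD28, against 10.84, 10.65, 11.03 and 10.47 in WT_CD3. Every costimulated array exceeded every array under anti-CD3 alone, and the KO_CD3CD28 arrays were the closest together, within 0.06 of each other. Tfrc rose by 1.92 (SE 0.15, 95% interval 1.61 to 2.22, 3.77-fold, limma adjusted p = 3.06e-08) in knockout cells and by 1.30 (SE 0.15, 95% interval 1.00 to 1.61, 2.47-fold, adjusted p = 3.99e-06) in wild-type cells. A smaller rise, or a fall, was seen in 98.9% of genes in knockout and in 98.4% in wild type. In order of mean level, KO_CD3CD28 (12.03 ± 0.03) and WT_CD3CD28 (12.05 ± 0.14) were highest and did not differ beyond their spread, and KO_CD3 was lowest at 10.11 ± 0.35, below WT_CD3 at 10.75 ± 0.24 (SD, n = 4 each). In these bulk samples, fewer cells that express a gene and less RNA per cell cannot be told apart.

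**Figure D1:**
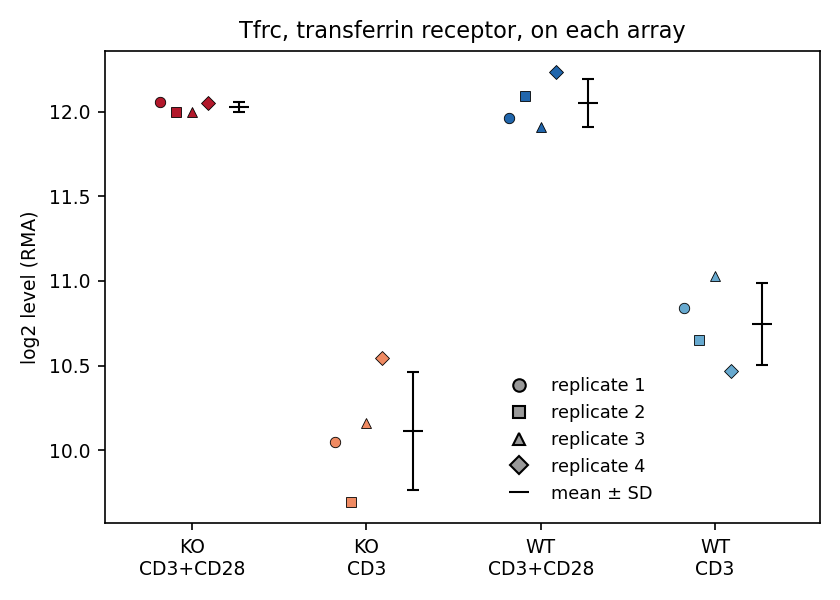
Log2 level of Tfrc (vertical axis) on each of the 16 arrays, by genotype and stimulus (horizontal axis), with symbols for the replicate number and bars for the mean ± SD of 4 arrays. The costimulated arrays lie between 11.91 and 12.23 in both genotypes, and those under anti-CD3 alone between 9.70 and 10.54 in knockout and between 10.47 and 11.03 in wild type.

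The background to these calls was wide. Costimulation changed 38% of the 16427 genes in knockout (20.4% higher and 17.6% lower) and 29% in wild type (16% higher and 13% lower), and of the 9 genes 4 were called higher in knockout, 2 in wild type and none lower in either. The median difference of the 9 genes was 0.20 in knockout and 0.18 in wild type, where all genes tested had medians of -0.06 and -0.03. Another fit added a term for each replicate number, shared by both genotypes (a replicate block). It called 5 of the 9 genes higher in knockout against a background of 23.3%, and 4 in wild type against 18.8%. The additional calls were Slc11a2 in knockout, and Aco1 and Ireb2 in wild type.

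Markers of T cells and of other cell types also moved with costimulation. Over all genes tested, 20.4% rose and 17.6% fell in knockout, and 16% rose and 13% fell in wild type. Of the 11 T cell markers, Cd3e, Cd3d, Cd3g and Cd247 fell and Thy1 rose in both genotypes, and Cd5 and Cd6 fell in wild type as well. Cd3d, a chain of the CD3 complex, fell by 0.85 in knockout (limma adjusted p = 0.00165) and by 1.06 in wild type (adjusted p = 0.000338). The summed log2 levels of the 11 were 121.1 to 121.5 in KO_CD3CD28, 123.9 to 126.3 in KO_CD3, 120.3 to 123.6 in WT_CD3CD28 and 124.8 to 127.4 in WT_CD3, so the stimuli did not overlap. Of 7 tested B cell markers, Cd79a, Ms4a1, Fcer2a and Cd22 fell in both genotypes (57.1% in each). The sums over 9 B cell markers with a probe were 52.98 to 54.15 in KO_CD3CD28, 55.19 to 57.99 in KO_CD3, 51.91 to 53.88 in WT_CD3CD28 and 56.01 to 56.89 in WT_CD3, and Cr2 and Ebf1 were near background in every group. Of 6 tested markers of CD8 T and NK cells, Cd8a, Cd8b1, Eomes and Nkg7 rose and Klrd1 and Prf1 fell in both genotypes. Their sums over 10 markers with a probe overlapped between the stimuli, at 64.05 to 67.46 in KO_CD3CD28, 66.51 to 68.88 in KO_CD3, 64.11 to 66.07 in WT_CD3CD28 and 64.93 to 66.45 in WT_CD3, and Klrb1c, Ncr1, Klrk1 and Gzma were near background in every group. Of 8 tested erythroid markers, Car2 fell in knockout and Sptb in wild type (12.5% in each, near or below the shares of all genes). The sums over 10 erythroid markers were 63.47 to 64.54 in KO_CD3CD28, 64.62 to 65.96 in KO_CD3, 62.73 to 65.03 in WT_CD3CD28 and 63.38 to 65.05 in WT_CD3, with Epb42, Klf1 and Rhag near background. The part of these cell types in the differences of the 9 genes was not tested.

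Of the other 2 genes of the uptake route, Slc11a2 encodes DMT1, the transporter that passes reduced iron out of the endosome. Slc11a2 had 8.27, 8.25, 8.24 and 8.08 in KO_CD3CD28, against 8.07, 8.00, 8.21 and 7.75 in KO_CD3. It had 8.30, 8.21, 8.46 and 8.24 in WT_CD3CD28, against 8.25, 8.10, 8.14 and 8.03 in WT_CD3. The groups overlapped in both genotypes, and each costimulated array was above the array of its own replicate number under anti-CD3. The differences were 0.20 (SE 0.10, limma adjusted p = 0.109) in knockout and 0.17 (SE 0.10, adjusted p = 0.211) in wild type, and the block gave adjusted p = 0.0409 in knockout. Steap3, the endosomal reductase that prepares iron for DMT1, ranged from 6.52 to 6.76 in KO_CD3CD28, from 6.61 to 6.82 in KO_CD3, from 6.38 to 6.68 in WT_CD3CD28 and from 6.55 to 6.61 in WT_CD3. Its differences with costimulation were -0.11 (95% interval -0.28 to 0.07) in knockout and -0.04 (-0.21 to 0.14) in wild type, so a rise of the size seen for Tfrc lay outside both intervals.

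Both genes of mitochondrial iron use rose with costimulation in knockout, and 1 of them in wild type. Slc25a37 encodes mitoferrin-1, which carries iron into the mitochondrial matrix. Slc25a37 had 8.75, 8.64, 8.41 and 8.63 in KO_CD3CD28, against 8.04, 8.17, 8.00 and 8.05 in KO_CD3. It had 8.71, 8.61, 8.47 and 8.36 in WT_CD3CD28, against 8.21, 8.15, 8.09 and 8.12 in WT_CD3. The stimuli did not overlap in either genotype, while the genotypes overlapped under both stimuli. It rose by 0.54 (SE 0.09, limma adjusted p = 0.000124) in knockout and by 0.39 (SE 0.09, adjusted p = 0.00273) in wild type. With replicates 3 and 4 alone the wild-type difference was 0.31 (adjusted p = 0.131).

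Fech encodes ferrochelatase, which inserts iron into protoporphyrin in the last step of heme synthesis. Fech had 7.65, 7.53, 7.60 and 7.58 in KO_CD3CD28, against 7.21, 7.17, 7.42 and 6.83 in KO_CD3. It had 7.62, 7.59, 7.83 and 7.69 in WT_CD3CD28, against 7.52, 7.34, 7.63 and 7.54 in WT_CD3. The KO_CD3 arrays lay below all KO_CD3CD28 arrays, with replicate 4 the lowest of all 16, and the wild-type groups overlapped. Fech rose by 0.43 (SE 0.11, limma adjusted p = 0.00369) in knockout and differed by 0.18 (SE 0.11, adjusted p = 0.242) in wild type. With replicates 3 and 4 alone the knockout difference was 0.47 (adjusted p = 0.0994).

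Aco1 and Ireb2 encode the iron regulatory proteins IRP1 and IRP2. IRP1 doubles as the cytosolic aconitase when it holds an iron-sulfur cluster, and IRP2 is degraded when iron is plentiful. Aco1 had 9.31, 9.08, 9.01 and 8.96 in KO_CD3CD28, against 8.79, 8.62, 8.90 and 8.38 in KO_CD3. It had 9.24, 9.27, 9.14 and 9.09 in WT_CD3CD28, against 8.98, 8.84, 8.98 and 8.82 in WT_CD3. The stimuli did not overlap in either genotype, although the gap was narrow in knockout, from 8.96 on the lowest costimulated array to 8.90 on the highest array under anti-CD3. Aco1 rose by 0.42 (SE 0.11, limma adjusted p = 0.00509) in knockout. In wild type its difference was 0.28 (SE 0.11, adjusted p = 0.0588, or 0.0193 with the replicate block). With replicates 3 and 4 alone the knockout difference was 0.34 (adjusted p = 0.203).

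Ireb2 was less affected. Ireb2 had 10.50, 10.44, 10.39 and 10.20 in KO_CD3CD28, against 10.29, 10.13, 10.25 and 10.41 in KO_CD3. It had 10.48, 10.33, 10.21 and 10.64 in WT_CD3CD28, against 10.27, 10.17, 10.10 and 10.09 in WT_CD3. Both pairs overlapped, and in knockout replicate 4 the array under anti-CD3 was the higher one. The differences were 0.11 (SE 0.10, limma adjusted p = 0.385) in knockout and 0.26 (SE 0.10, adjusted p = 0.0605, or 0.0454 with the replicate block) in wild type. After quantile normalization the knockout difference changed sign, to -0.12 (adjusted p = 0.343).

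Neither the export gene nor the heme breakdown gene was called in any comparison. Slc40a1 encodes ferroportin, the known exporter of iron from mammalian cells, and its probe was near background in all 4 groups. It ranged from 5.40 to 5.81 in KO_CD3CD28, from 5.26 to 5.76 in KO_CD3, from 5.39 to 5.54 in WT_CD3CD28 and from 5.22 to 5.52 in WT_CD3. Its differences with costimulation were -0.01 (95% interval -0.24 to 0.23) in knockout and 0.10 (-0.13 to 0.34) in wild type, and a probe this dim cannot show a fall. Hmox1 encodes heme oxygenase 1, the inducible enzyme that frees iron from heme. It ranged from 6.86 to 7.23 in KO_CD3CD28, from 6.84 to 7.42 in KO_CD3, from 6.56 to 7.15 in WT_CD3CD28 and from 6.95 to 7.11 in WT_CD3. Its differences with costimulation were -0.12 (-0.41 to 0.18) in knockout and -0.08 (-0.38 to 0.21) in wild type. Iron-recycling macrophages express both genes, and of 17 macrophage and myeloid markers with a probe 9 were near background in every group, among them Adgre1, Csf1r, Spic and Vcam1. The other 8, Cd68, C1qa, C1qb, Lyz2, Itgam, Fcgr3, Tyrobp and Marco, were not. The summed log2 levels of the 17 markers were 100.5 to 102.4 in KO_CD3CD28, 105.5 to 108.0 in KO_CD3, 99.96 to 101.4 in WT_CD3CD28 and 102.8 to 104.5 in WT_CD3. Of the 14 tested, 6 fell with costimulation in knockout (42.9%, against 17.6% of all genes) and 4 in wild type (28.6%, against 13%). Cd68, Itgam, Fcgr3 and Tyrobp fell in both, and Lyz2 and Cd14 in knockout. The part of the myeloid markers in the values of Slc40a1 and Hmox1 was not tested.

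**Figure D2:**
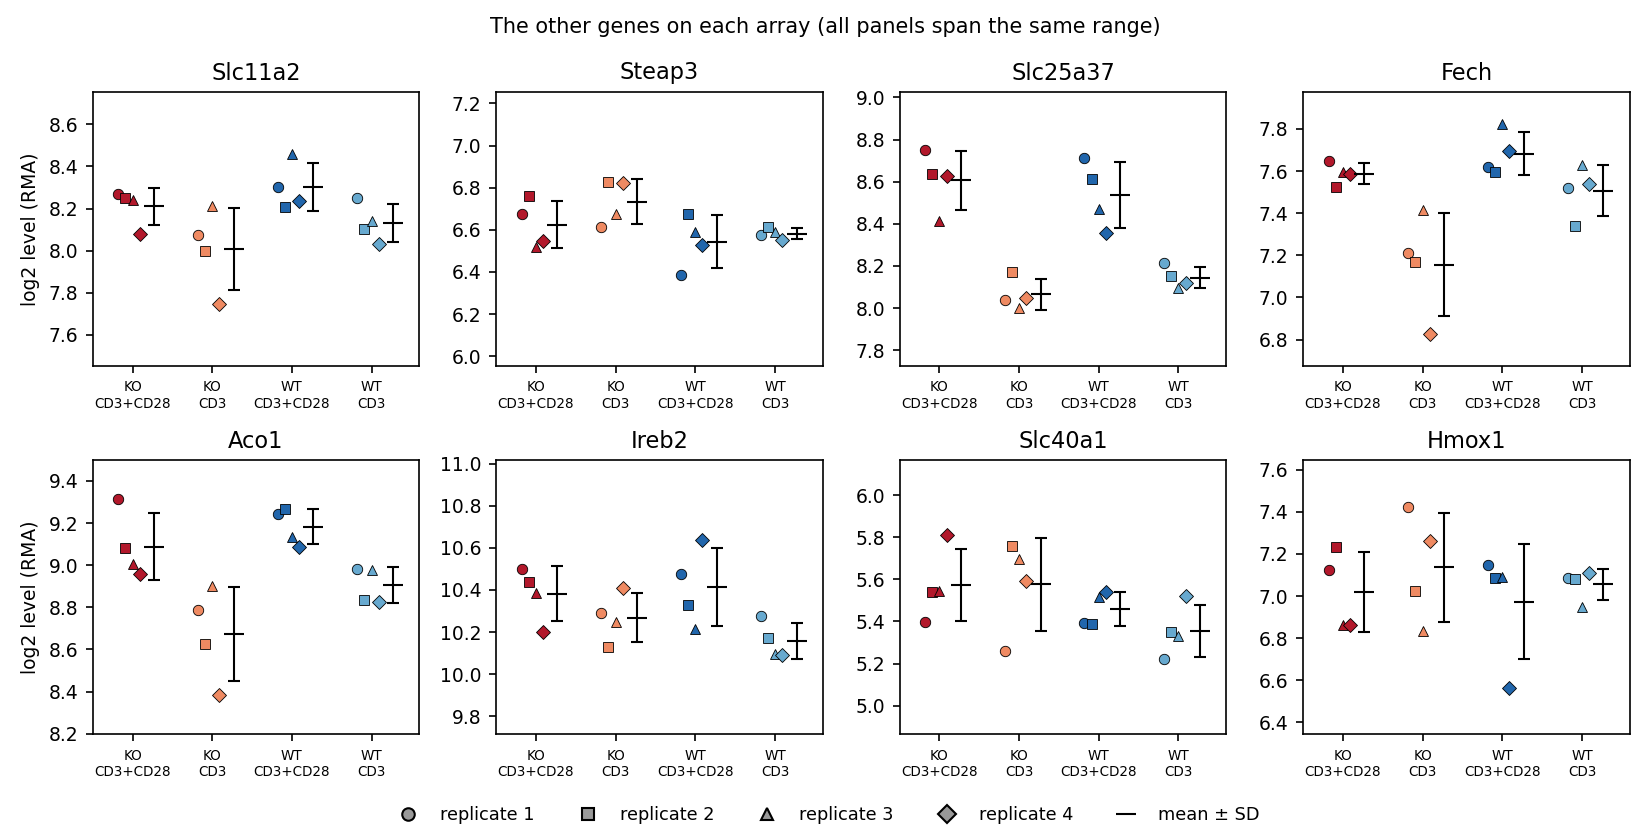
Log2 levels (vertical axes, all spanning the same range) of the other 8 genes on the 16 arrays, by genotype and stimulus, with symbols for the replicate number and bars for the mean ± SD of 4 arrays. Slc25a37 and Aco1 part the stimuli in both genotypes and Fech in knockout, while for Steap3, Slc40a1 and Hmox1 the stimuli overlap in both genotypes.

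The loss of Dec1 left the 9 genes close to wild type under costimulation. In that comparison 0.00609% of genes were called, a single gene, which was Bhlhe40 itself, and none of the 9 (limma; 545 of all genes and 0 of the 9 had an unadjusted p under 0.05). Tfrc differed by -0.02 (SE 0.15, 95% interval -0.33 to 0.28, adjusted p = 0.999) between KO_CD3CD28 and WT_CD3CD28. The other 8 genes differed by -0.09 to 0.11, and each of their intervals included 0.

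Under anti-CD3 alone, Tfrc was the only one of the 9 genes called between genotypes. Its mean was 10.11 ± 0.35 in KO_CD3 and 10.75 ± 0.24 in WT_CD3 (SD, n = 4 each), a difference of -0.64 (SE 0.15, 95% interval -0.94 to -0.33, limma adjusted p = 0.0481). The groups overlapped, since replicate 4 of the knockout (10.54) lay above replicate 4 of wild type (10.47), and the other 3 numbered pairs were lower in knockout. An exact two-sided permutation test of these 4 against 4 arrays gave p = 0.0571, where the smallest possible is 0.0286. Over the whole array 1.03% of genes were called, 0.749% lower in knockout. The call stood near its threshold: leaving out each array in turn gave adjusted p between 0.0162 and 0.181 and kept it in 4 of 16 cases, and within replicates 1 and 2 the difference was -0.88 (adjusted p = 0.00424), against -0.40 (adjusted p = 0.313) within replicates 3 and 4. With the Xist level as a covariate the difference was -0.64 (adjusted p = 0.0735). The summed myeloid markers did not overlap between these groups, at 105.5 to 108.0 in KO_CD3 and 102.8 to 104.5 in WT_CD3. Nor did those of CD8 T and NK cells (66.51 to 68.88 and 64.93 to 66.45), which include 4 markers near background. Of the 6 tested, Klrd1 (0.92), Cd8a (0.27) and Prf1 (0.22) were higher in KO_CD3, and Eomes (-0.74), Nkg7 (-0.38) and Cd8b1 (-0.13) were lower. The sums for T, B and erythroid cells overlapped. None of the tested markers was called between genotypes, and their part in the difference of Tfrc was not tested.

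Fech and Aco1 ran in the same direction without being called. Fech averaged 7.16 ± 0.25 in KO_CD3 and 7.51 ± 0.12 in WT_CD3 (SD, n = 4 each), a difference of -0.35 (limma adjusted p = 0.0935), lower in knockout in all 4 numbered pairs. With the replicate block it was called (adjusted p = 0.0286), and 2 of the 9 genes, Tfrc and Fech, were then lower in knockout, against a background of 6.56% of all genes. Between genotypes the block matches replicate numbers and not animals. Aco1 averaged 8.67 ± 0.22 in KO_CD3 and 8.90 ± 0.09 in WT_CD3, a difference of -0.23 (adjusted p = 0.197), also lower in all 4 pairs. KO_CD3 replicate 4 held the lowest value of all 16 arrays for Aco1, Fech and Slc11a2, and the highest value of its group for Tfrc and Ireb2. Steap3 was higher on every KO_CD3 array, from 6.61 to 6.82, than on any WT_CD3 array, from 6.55 to 6.61, but the difference of 0.15 was not called (adjusted p = 0.263). In this comparison Slc11a2, Ireb2, Slc40a1, Slc25a37 and Hmox1 differed by -0.12 to 0.22 with adjusted p from 0.223 to 0.732.

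The test of whether costimulation acted differently in the 2 genotypes called 0% of genes and none of the 9 (limma; 867 of all genes and 1 of the 9 had an unadjusted p under 0.05). That 1 gene was Tfrc, whose rise was larger in knockout by 0.61 (SE 0.21, 95% interval 0.18 to 1.05, unadjusted p = 0.00861, adjusted p = 0.905). The remaining 8 differences of effect were between -0.14 and 0.26. The difference for Tfrc and its difference between genotypes under anti-CD3 share the anti-CD3 arrays and are not separate evidence.

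**Figure D3:**
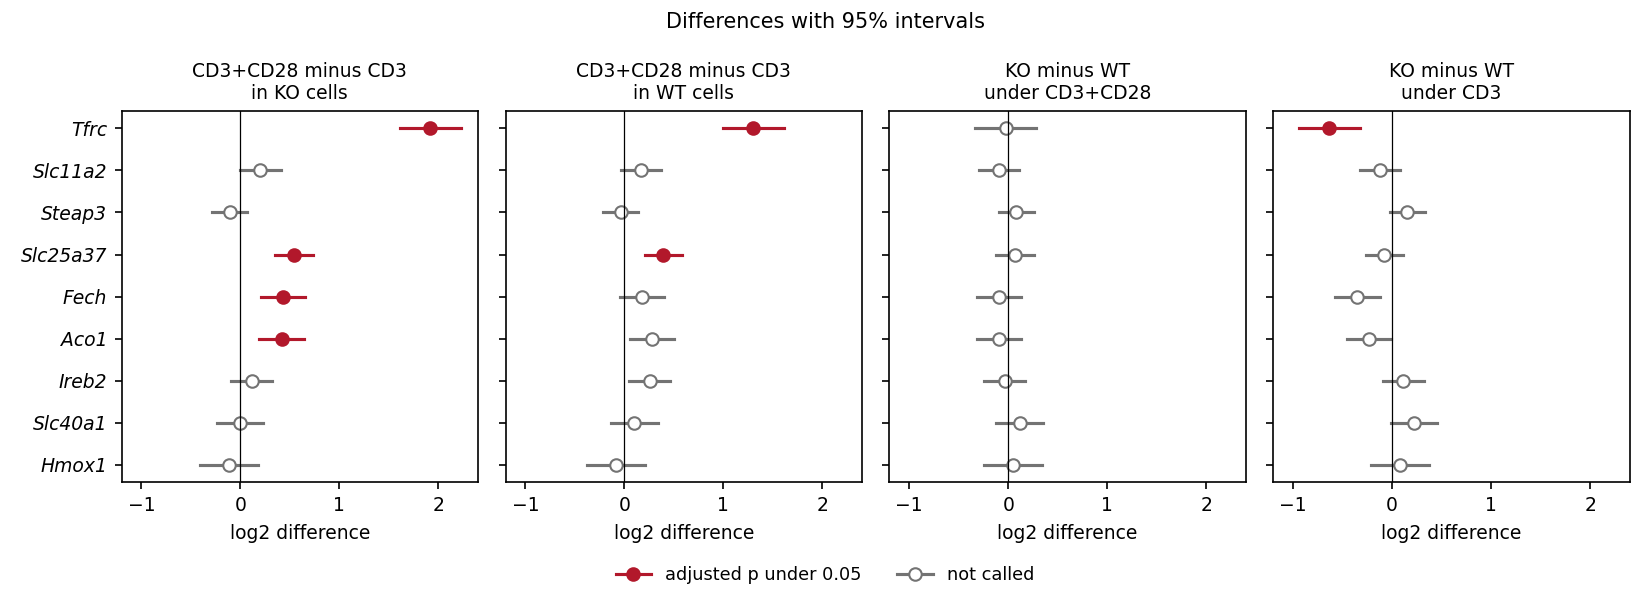
Log2 differences (horizontal axes) of the 9 genes with their 95% intervals, for costimulation against anti-CD3 alone in knockout and in wild type, and for knockout against wild type under each stimulus. Filled red points were called (adjusted p under 0.05): 4 genes and 2 genes with costimulation, 0 between genotypes with it, and Tfrc alone under anti-CD3.

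The tested genes whose levels followed Tfrc most closely over the 16 arrays were found by the mean absolute difference after centring each gene on its own mean. The median of this distance over all genes was 0.83. The closest were Slf1 (0.0852), Ezh2 (0.0956), Tipin (0.117), Pold3 (0.119) and Naf1 (0.120). Slf1, Tipin and Pold3 take part in DNA replication and repair, Ezh2 is the histone methyltransferase of Polycomb complex PRC2, and Naf1 helps to assemble the ribonucleoproteins of telomerase and the nucleolus. Their rises with costimulation were 1.76 to 2.11 in knockout and 1.24 to 1.44 in wild type. Since these 5 genes were chosen for their likeness to Tfrc on the same arrays, their differences restate that choice and were given no test.

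The 9 genes were set beside 93 other tested genes of iron metabolism in 8 lists. The lists were chosen with earlier results of these data known, so the shares below describe them and are not independent evidence. Of the 102 genes in all, 46 rose and 6 fell with costimulation in knockout (45.1% and 5.88%, against 20.4% and 17.6% of all genes tested), and 27 rose and 7 fell in wild type (26.5% and 6.86%, against 16% and 13%). With the replicate block 50 rose and 8 fell in knockout, against 23.3% and 22% of all genes, and 36 rose and 13 fell in wild type, against 18.8% and 16.5%. The block ended none of the calls. In knockout it added 6, Slc11a2, Slc39a8, Hscb and Nubp2 among the higher genes and Nfe2l2 and Mms19 among the lower (limma adjusted p from 0.00663 to 0.0409). In wild type it added 15 (adjusted p from 0.0174 to 0.0455), which were Slc39a14, Aco1, Ireb2, Nfs1, Lias, Pcbp1, Pold1, Nubp1 and Abcg2 among the higher genes and Urod, Hif1a, Ftl1, Fth1, Nfe2l2 and Mms19 among the lower. These genes are named because the block called them, after their values were seen. Replicates 3 and 4 alone gave 22 higher and 2 lower genes in knockout, against 11% and 6.58% of all genes, and 18 and 5 in wild type, against 8.85% and 7.28%. After quantile normalization 40 rose and 10 fell in knockout, against 17% and 19.9% of all genes, and 26 and 11 in wild type, against 13.9% and 14.6%. The median difference of the 102 genes was 0.21 in knockout and 0.13 in wild type, where all genes had -0.06 and -0.03.

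Of 13 genes of iron uptake and reduction, 2 rose and 2 fell in knockout (15.4% each, median difference -0.11), and 1 rose and 2 fell in wild type (7.69% and 15.4%, median -0.02), shares near or below those of all genes. The block gave 4 risers in knockout and 2 in wild type. Apart from Tfrc, the riser was Slc39a14, the ZIP14 metal importer (0.39, limma adjusted p = 0.0301, in knockout and 0.37, adjusted p = 0.0525, in wild type, or 0.0174 with the replicate block). With replicates 3 and 4 alone Slc39a14 was called in neither (0.21, adjusted p = 0.369, in knockout and adjusted p = 0.701 in wild type). Replicates 1 and 2 alone called it in both (adjusted p = 0.000666 in knockout and 0.000636 in wild type). Centring the array medians called it in wild type too (adjusted p = 0.0327). Mcoln1, an endolysosomal cation channel that releases iron, fell by 0.64 in knockout (adjusted p = 0.00306) and by 0.74 in wild type (adjusted p = 0.00117). Trf, transferrin itself, fell by 0.24 in knockout (adjusted p = 0.0323) and by 0.27 in wild type (adjusted p = 0.0232), calls that quantile normalization ended (adjusted p = 0.0843 and 0.0691), as did replicates 1 and 2 alone (0.0741 and 0.174) and replicates 3 and 4 alone (0.285 and 0.121). Mcoln1 was not called in knockout with replicates 3 and 4 alone (adjusted p = 0.0571). Of 12 genes of storage, export and systemic control, 1 rose in knockout (8.33%, median -0.09) and 0 were called in wild type (limma; 3 had an unadjusted p under 0.05; median -0.03), again below the shares of all genes. In wild type 1 rose and 2 fell with the replicate block. The riser was Pcbp1, a chaperone that delivers iron to ferritin (0.78, adjusted p = 0.00141, in knockout and 0.41, adjusted p = 0.081, in wild type, or 0.031 with the replicate block). With replicates 3 and 4 alone Pcbp1 was called in neither genotype (0.57, adjusted p = 0.106, in knockout and adjusted p = 0.467 in wild type). Replicates 1 and 2 alone called Pcbp1 in both (adjusted p = 1.2e-05 in knockout and 0.00177 in wild type). After quantile normalization its wild-type difference was 0.27 (adjusted p = 0.261). Fth1 and Ftl1, the ferritin subunits, have near-identical copies in the mouse genome that their probes may also read. Fth1 differed by -0.06 in knockout and -0.21 in wild type (adjusted p = 0.621 and 0.0807), and Ftl1 by -0.10 and -0.83 (adjusted p = 0.841 and 0.0948). With the replicate block both were called lower in wild type (adjusted p = 0.0382 for Fth1 and 0.0325 for Ftl1). Neither was called with replicates 3 and 4 alone (adjusted p = 0.252 and 0.245 in wild type). Quantile normalization called Ftl1 lower in wild type (-0.97, adjusted p = 0.049), as did replicates 1 and 2 alone (-0.60, adjusted p = 0.00358). Fth1 was called by neither (adjusted p = 0.0554 and 0.345).

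Of 10 sensors and regulators, 2 rose and 2 fell in knockout (20% each, median -0.09), and 1 rose and 2 fell in wild type (10% and 20%, median -0.11), near the shares of all genes. With the replicate block 3 genes fell in knockout, while 3 rose and 4 fell in wild type. After quantile normalization 5 fell in knockout and 4 in wild type. Bach1, a heme-binding repressor of heme oxygenase 1 and ferritin genes, fell by 1.14 in knockout (limma adjusted p = 8.44e-07) and by 1.06 in wild type (adjusted p = 3.64e-06), while Hmox1 was not called. Myc, which is known to induce Tfrc, averaged 11.76 in KO_CD3CD28, 10.65 in KO_CD3, 11.87 in WT_CD3CD28 and 11.25 in WT_CD3. It rose by 1.10 in knockout (adjusted p = 3.83e-06) and by 0.62 in wild type (adjusted p = 0.00146). Epas1, a hypoxia-inducible factor whose message holds an iron-responsive element, fell by 0.52 and 0.55 (adjusted p = 0.000368 and 0.000329).

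In heme synthesis 8 of 13 genes rose and 1 fell in knockout (61.5% and 7.69%, median 0.43, against 20.4% and 17.6% of all genes), and 4 rose and 1 fell in wild type (30.8% and 7.69%, median 0.19, against 16% and 13%). In wild type 2 fell with the replicate block, since Urod, the uroporphyrinogen decarboxylase, was then called lower (-0.33, adjusted p = 0.0239). Replicates 3 and 4 alone gave 3 and 0 in knockout, against 11% and 6.58% of all genes, and 2 and 1 in wild type, against 8.85% and 7.28%. Cpox, the coproporphyrinogen oxidase, rose by 1.31 in knockout (limma adjusted p = 5.28e-07) and 0.99 in wild type (adjusted p = 1.95e-05). Ppox, the next enzyme of the pathway, fell by 0.51 in knockout (adjusted p = 0.0215) and 0.63 in wild type (adjusted p = 0.00702). Clpx, which activates the first enzyme of the pathway, rose by 0.66 and 0.52 (adjusted p = 5.59e-05 and 0.000703), and Abcb6, a porphyrin transporter, by 0.71 and 0.40 (adjusted p = 0.000192 and 0.0206). After quantile normalization Clpx rose by 0.42 in knockout. The calls of Abcb6 in wild type (0.24, adjusted p = 0.345) and Ppox in knockout (adjusted p = 0.0776) ended with replicates 3 and 4 alone.

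Of 12 genes of heme breakdown and transport, 4 rose and 1 fell in knockout (33.3% and 8.33%, median -0.06), and 2 rose and 2 fell in wild type (16.7% each, median 0.05, near the shares of all genes). The block gave 3 risers in wild type, and replicates 3 and 4 alone gave 1 riser in knockout. Blvra, the biliverdin reductase downstream of heme oxygenase, rose by 0.74 in knockout and 0.63 in wild type (limma adjusted p = 0.000106 and 0.000637). Flvcr1, a transporter first described as a heme exporter, rose by 0.59 and 0.56 (adjusted p = 0.000741 and 0.00167). Pgrmc1, a heme-binding partner of ferrochelatase, rose by 0.50 in knockout (adjusted p = 0.00366) and differed by 0.29 in wild type (adjusted p = 0.09). Slc48a1, a lysosomal heme transporter, fell by 0.43 in wild type (adjusted p = 0.00514) and differed by -0.21 in knockout (adjusted p = 0.127). After quantile normalization Slc48a1 was called lower in knockout too (-0.34, adjusted p = 0.00952), and with replicates 1 and 2 alone its wild-type call ended (-0.26, adjusted p = 0.0694). Replicates 3 and 4 alone ended the knockout calls of Flvcr1 (adjusted p = 0.0973) and Pgrmc1 (0.17, adjusted p = 0.369). Replicates 1 and 2 alone called Pgrmc1 in both genotypes (adjusted p = 8.02e-05 in knockout and 0.00776 in wild type). After quantile normalization Flvcr1 rose by 0.37 in knockout.

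In mitochondrial iron import and iron-sulfur cluster assembly, 12 of 16 genes rose in knockout (75%, median 0.56, against 20.4% of all genes) and 7 in wild type (43.8%, median 0.30, against 16%), and none fell. With replicates 3 and 4 alone the counts were 6, where 11% of all genes rose, and 5, where 8.85% did. Cisd1, the iron-sulfur protein mitoNEET of the outer membrane, rose by 1.33 in knockout (limma adjusted p = 2.66e-06) and 0.86 in wild type (adjusted p = 0.000322). Hspa9, the chaperone that helps clusters leave their scaffold, rose by 0.82 and 0.57 (adjusted p = 1.05e-06 and 7.75e-05). Nubpl and Bola3, late assembly factors, rose by 0.73 and 0.61 and by 0.70 and 0.76, in knockout and in wild type in each case. Of 10 genes of the cytosolic assembly machinery, 5 rose in knockout (50%, median 0.40) and 2 in wild type (20%, median 0.15, near the share of all genes), and none fell. After quantile normalization 1 fell in each genotype. With the replicate block Mms19, an assembly factor for DNA enzymes with clusters, was called lower in both (-0.28, adjusted p = 0.0338, in knockout and -0.27, adjusted p = 0.0455, in wild type), and 3 rose in wild type. From replicates 3 and 4 alone there was 1 riser in knockout and none in wild type. Glrx3 rose by 0.82 in knockout (adjusted p = 6.74e-05) and by 0.36 in wild type (adjusted p = 0.0423). Its wild-type call ended after quantile normalization (0.22, adjusted p = 0.174) and with replicates 3 and 4 alone (0.23, adjusted p = 0.37). Ciapin1 rose by 0.49 and 0.46 (adjusted p = 0.0122 and 0.021). Ciao2a and Nubp1 rose by 0.64 and 0.63 in knockout (adjusted p = 0.000146 and 0.00209). In wild type these 2 differed by 0.22 and 0.37 (adjusted p = 0.149 and 0.064).

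The largest rises of the 102 genes were among enzymes that hold iron or an iron-sulfur cluster, of which 12 of 16 rose in knockout (75%, median 0.70, against 20.4% of all genes) and 10 in wild type (62.5%, median 0.57, against 16%). None fell, although 1 did in knockout after quantile normalization. Rrm2, the iron-dependent subunit of ribonucleotide reductase, had the largest rise of the 102 in both genotypes, by 3.58 in knockout (limma adjusted p = 3.07e-07) and 2.48 in wild type (adjusted p = 2.98e-05). Prim2, the large subunit of DNA primase, rose by 2.18 and 1.53 (adjusted p = 8.76e-08 and 8.15e-06), and both genes were named after their values were seen. Brip1, a DNA helicase, rose by 2.72 in knockout (limma adjusted p = 8.98e-09) and 2.30 in wild type (adjusted p = 1.31e-07). Pole, the catalytic subunit of DNA polymerase epsilon, rose by 2.67 and 1.67 (adjusted p = 3.5e-08 and 1.11e-05), and Dna2, a nuclease and helicase, by 2.27 and 2.21 (adjusted p = 1.61e-07 and 4.46e-07). Ppat, the first enzyme of purine synthesis, rose by 1.02 and 0.71 (adjusted p = 6.97e-08 and 7.19e-06). Rrm2, Brip1, Pole, Dna2 and Prim2, genes of DNA synthesis and repair, led this list in both genotypes, and its other genes rose less or were not called. Sdhb, Uqcrfs1, Ndufs1 and Lias rose by 0.69, 0.70, 0.45 and 0.37 in knockout. Rrm2b, Nthl1, Ercc2 and Cdk5rap1 were called in neither genotype. They and the genes of the sentence before were also named after their values were seen.

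**Figure D4:**
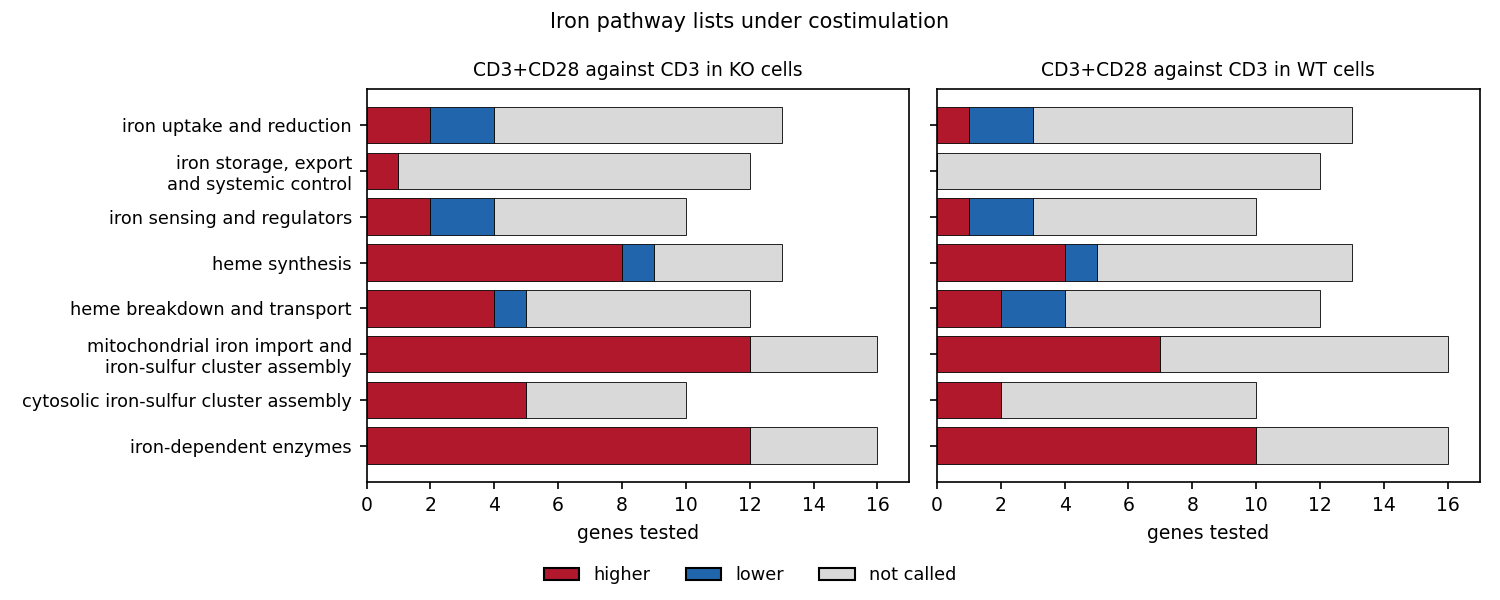
Numbers of tested genes (horizontal axes) in 8 lists of iron metabolism that were higher (red), lower (blue) or not called (grey) under anti-CD3 plus anti-CD28 against anti-CD3 alone, in knockout and in wild type. Mitochondrial and iron-dependent lists hold 12 higher genes each in knockout and 7 and 10 in wild type, while storage and export holds 1 and 0.

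Between genotypes, none of the 102 genes was called under costimulation (limma; 0 had an unadjusted p under 0.05). Under anti-CD3 alone 3 were called, all lower in knockout: Tfrc, Myc (-0.60, limma adjusted p = 0.0421) and Pole (-1.11, adjusted p = 0.0236). Of all genes tested 1.03% were called in this comparison, 0.749% lower in knockout. With the replicate block 20 were lower and 1 higher, where 6.56% of all genes were lower and 5.34% higher. The 20 included Alas1, the first enzyme of heme synthesis in non-erythroid cells (-0.44, adjusted p = 0.0137 with the block and 0.0929 without), and Rrm2 (-1.08, adjusted p = 0.0269 and 0.0975). The 1 higher gene was Tmprss6, a protease of hepcidin control (0.22, adjusted p = 0.046 and 0.168). These 3 were picked after their values were seen. Replicates 3 and 4 alone ended the calls of Tfrc, Myc and Pole (adjusted p = 0.313, 0.199 and 0.199).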

How the data were processed

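RNA of 16 cultures was read on Affymetrix mouse arrays with 35556 probes. The deposited values are log2 signals that the authors made with RMA, per the submitters' processing notes. RMA corrects background, equalizes the arrays by quantiles and summarizes each probe set, so differences in total RNA per cell are not retained. The medians of the deposited arrays still ranged from 6.64 to 6.97, so their values did not share the same distribution. No build is named for the array's probes. Groups came from the sample labels.

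Gene symbols came from the platform's probe table: 21789 of 23410 listed probes carry 1 symbol. Probes had to lie above the 25th percentile of an array on 4 or more arrays, and each gene was read by its brightest remaining probe. limma 3.58.1 under R 4.3.3 fitted 1 mean per group over all 16 arrays (12 residual degrees of freedom, 4.92 prior), with Benjamini-Hochberg adjustment over 16427 genes and a threshold of 0.05, and was tested on simulated data. The 5 comparisons were costimulation in each genotype, genotype under each stimulus, and the interaction. Single genes were also compared by exact permutation.

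Same-numbered replicates deviated together: correlations of their deviations from the group means were 0.16 to 0.59 over the 4 comparisons of groups. The numbers were therefore taken to pair the arrays, although the labels do not say so and the parting of replicates 1 and 2 from 3 and 4 contributes to these values. Between genotypes the paired arrays cannot come from the same animal, and by Xist those of replicates 1, 2 and 4 differed in sex. There the block matches replicate numbers only. The terms of the block are shared by both genotypes. A pairing within each genotype was not fitted, so the costimulation calls with the block do not come from such a pairing. Fits with the replicate number as a block are given where they change a call or a count by over 1.5 times. Other alternatives covered scaling, the filter, probe choice, variance model, array weights, the groups fitted, leaving out each array, either set of replicates, and Xist as a covariate.

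The members and gene lists were chosen with earlier results of these data known. Other named genes are, per list, the 3 non-members with the smallest p in each costimulation comparison, and up to 3 called ones in each other comparison. Pcbp2 and Ftmt, which this rule also took, were called in no comparison and are not described. Genes named for the block or after their values were seen are marked so. The 5 genes closest to Tfrc were ranked by distance. Sequences are from RefSeq promoter windows (GRCm38.p6), read with Python 3.11.15 and pandas 2.3.3. Plots were drawn with matplotlib 3.10.9.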

Additional observations from a re-analysis of the deposited data

Results flagged for a closer look

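In 40 groups of 4 arrays (the 9 genes and Bhlhe40), 3 held an array far from the other 3 by Dixon's test, where chance gives about 1 in 20. Slc11a2 had 8.08 on KO_CD3CD28 replicate 4, against 8.24 to 8.27 on the other 3. Hmox1 had 6.56 on WT_CD3CD28 replicate 4, against 7.09 to 7.15, and without this array its costimulation difference in wild type was 0.05 in place of -0.08. Hmox1 also had 6.95 on WT_CD3 replicate 3, against 7.08 to 7.11. Of the differences these arrays enter, limma called none without the replicate block, and with it the costimulation difference of Slc11a2 in knockout (0.20, adjusted p = 0.0409).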

How the results depend on the processing

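The rises of Tfrc with costimulation were called under all alternatives, at 1.68 to 2.16 in knockout and 1.21 to 1.40 in wild type. The difference of Tfrc between genotypes under anti-CD3 kept its direction but not its call: -0.64 with medians centred (limma adjusted p = 0.0554), without the filter (0.0529), with only the groups compared (0.105), with the Xist level (0.0735) and by exact permutation (p = 0.0571), -0.52 after quantile normalization (0.0842) and -0.40 with replicates 3 and 4 (0.313). Leaving out each array gave -0.78 to -0.50. The call was kept without KO_CD3 replicate 3 or 4, WT_CD3CD28 replicate 4 or WT_CD3 replicate 4, and ended without any of the other 12 arrays, in 7 cases with the value itself unchanged, since those were costimulated arrays that enter only the variance. The cause of the other changes was not tested. Under costimulation the genotype difference of Tfrc was -0.070 to 0.037 with arrays left out.

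Genes called between genotypes under anti-CD3, 169 in the report, numbered 597 with array weights, 1954 with the replicate block, 5 with only the groups compared, 1388 with replicates 1 and 2, 0 with replicates 3 and 4, 49 with the Xist level, and 7 (without WT_CD3 replicate 3) to 452 (without KO_CD3 replicate 3) with arrays left out. The share of these calls that was higher in knockout was 27.2%, 16.7% with medians centred and 37.9% after quantile normalization. Replicates 3 and 4 alone called 2896 genes with costimulation in knockout and 2650 in wild type. Replicates 1 and 2 alone called 2 between genotypes under costimulation and 80 in the interaction.

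Of the 9 genes, 2 were called in knockout and 1 in wild type with replicates 3 and 4, and 4 in wild type with a filter at the array median, array weights or the block. Between genotypes under anti-CD3 the number was 2 with the block, 0 with medians centred, quantile normalization, no filter, only the groups compared, replicates 3 and 4 or the Xist level, and 0 to 2 with arrays left out. The block changed no other call of the 9 genes than those in the report.

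Among 1286 differences of the 9 genes under alternatives, 44 changed sign, none of them called. With costimulation these were Hmox1 in wild type (0.0071 with array weights, 0.033 with replicates 1 and 2, -0.142 to 0.052 with arrays left out), Ireb2 in knockout (-0.124 after quantile normalization, -0.035 with replicates 3 and 4), Slc40a1 in knockout (0.0087 with medians centred, 0.054 after quantile normalization, 0.0024 with array weights, 0.031 with replicates 3 and 4, -0.11 to 0.055 with arrays left out) and Steap3 in wild type (0.0068 after quantile normalization, -0.082 to 0.016 with arrays left out). Between genotypes under anti-CD3 they were Ireb2 (-0.012 with replicates 1 and 2), Slc25a37 (0.025 after quantile normalization) and Hmox1 (-0.017 to 0.18 with arrays left out). Under costimulation they were Ireb2 (0.048 with array weights, 0.067 with replicates 1 and 2, -0.10 to 0.041 with arrays left out), Slc11a2 (0.0064 with replicates 1 and 2), Steap3 (-0.026 with replicates 3 and 4) and Hmox1 (-0.088 to 0.106 with arrays left out), and Tfrc without WT_CD3CD28 replicate 4. In the interaction they were Hmox1 (0.015 with replicates 3 and 4, -0.168 to 0.065 with arrays left out), Ireb2 (0.079 with replicates 1 and 2), Slc11a2 (-0.016 after quantile normalization, -0.083 with replicates 3 and 4, -0.056 to 0.0995 with arrays left out) and Steap3 (0.062 with replicates 1 and 2). Probes under the array median, such as that of Slc40a1, have no value with that filter.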
